A study of Homo sapiens with 8 samples.

Results

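The 52 genes described here encode the proteins that copy DNA and supply its building blocks. They comprise 15 origin licensing genes, 6 helicase activation genes and 9 subunits of the polymerases and primase. A further 11 encode the sliding clamp, its loader, the flap nuclease, the DNA ligase and the single-strand binding protein. The last groups are 4 enzymes of deoxynucleotide supply and 7 genes of S phase control and chromatin assembly. Members were taken from a list of symbols. Each was read through the probe sets annotated to that symbol alone, and where a gene had several, the set that was brightest on average was used. All 52 were measured, among 19775 genes in all.

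RNA from human colorectal adenocarcinoma lines had been hybridised to Affymetrix expression arrays in 4 groups of 2 arrays. HT29 cells were compared as parental cells in DMEM with 10% fetal bovine serum and as spheres, labelled 1st spheres. The sphere medium was DMEM-F12 with 10 ng/ml each of EGF and bFGF and N2 supplement, with no serum listed. SW480 cells were compared as a stable line made with the vector alone and as a stable line labelled as expressing Snail, a transcriptional repressor of epithelial genes, both in DMEM with 10% fetal bovine serum. The promoter of the construct and the number of clones behind each stable line were not given in the sources used here. Both comparisons therefore describe a whole culture: medium, serum and sphere form cannot be told apart in HT29. Whether paired arrays stem from independent cultures is not stated, so the p-values cover only the scatter between arrays of a pair, possibly technical. Standard errors and p-values used a spread for each gene pooled over the 4 groups, not that of the groups compared. The pairs were not equally tight. Over members the median gap within a pair was 0.40 (log2) for HT29 parental, 0.15 for HT29 spheres, 0.07 for SW480 vector and 0.09 for SW480 Snail.

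Chromosome replication is prepared in G1, when the origin recognition complex, CDC6 and CDT1 load the MCM2 to MCM7 helicase rings onto DNA. At the start of S phase CDC45 and the GINS complex join the ring to make the active helicase. Primase and polymerase alpha then lay down primers, and polymerases epsilon and delta extend them on the PCNA clamp. Ribonucleotide reductase and thymidylate synthase make the deoxynucleotides. Many of these genes are textbook targets of the E2F transcription factors, and in tissue they are transcribed mainly by dividing cells, such as those of the colonic crypt base.

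The promoters of 5 members are printed because 4 of them hold the E2F letters that many member promoters share, and the fifth lacks them. Promoter sequences came from RefSeq (GRCh38.p14) and were matched by symbol for 45 of the 52 members, with 58 promoters between them. The window searched ran from 250 bases before to 50 bases after the transcription start. Capitals mark matches on either strand to the E2F octamers TTTCCCGC, TTTCGCGC, TTTGCCGC or TTTGGCGC, which read GCGGGAAA, GCGCGAAA, GCGGCAAA or GCGCCAAA on the other strand. Each sequence is the 250 bases before the start, 5′ to 3′ in the direction of transcription. The first 4 belong to DTL and TYMS, which fell most in spheres in their role groups, and to CDT1 and MCM6, a loader and a subunit of the helicase. ORC5 is the contrast, with no match and a sphere change of -0.09 ± 0.22 (log2). It is not typical of members without a match, of which 20 of 23 fell in spheres.
DTL (chr1:212035498-212035747, plus strand): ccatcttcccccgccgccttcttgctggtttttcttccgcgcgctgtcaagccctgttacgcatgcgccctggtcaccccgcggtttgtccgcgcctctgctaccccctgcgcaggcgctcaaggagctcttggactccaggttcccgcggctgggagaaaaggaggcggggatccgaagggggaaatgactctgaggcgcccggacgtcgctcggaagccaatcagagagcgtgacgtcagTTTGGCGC
TYMS (chr18:657403-657652, plus strand): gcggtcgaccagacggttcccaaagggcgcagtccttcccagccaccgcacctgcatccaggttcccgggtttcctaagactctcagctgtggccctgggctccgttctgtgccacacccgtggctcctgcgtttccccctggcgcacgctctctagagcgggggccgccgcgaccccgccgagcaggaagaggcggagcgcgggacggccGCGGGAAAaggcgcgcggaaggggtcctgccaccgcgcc
CDT1 (chr16:88803539-88803788, plus strand): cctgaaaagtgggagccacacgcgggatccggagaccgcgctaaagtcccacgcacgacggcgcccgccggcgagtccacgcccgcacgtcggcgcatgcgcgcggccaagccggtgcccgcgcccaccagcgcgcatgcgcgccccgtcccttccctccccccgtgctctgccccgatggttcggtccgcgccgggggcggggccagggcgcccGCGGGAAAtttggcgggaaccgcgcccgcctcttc
MCM6 (chr2:135876444-135876693, minus strand): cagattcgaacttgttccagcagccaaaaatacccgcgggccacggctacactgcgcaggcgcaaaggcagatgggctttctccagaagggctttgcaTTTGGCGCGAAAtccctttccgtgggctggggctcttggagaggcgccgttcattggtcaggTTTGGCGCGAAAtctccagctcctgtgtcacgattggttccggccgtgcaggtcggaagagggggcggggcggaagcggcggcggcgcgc
ORC5 (chr7:104208014-104208263, minus strand): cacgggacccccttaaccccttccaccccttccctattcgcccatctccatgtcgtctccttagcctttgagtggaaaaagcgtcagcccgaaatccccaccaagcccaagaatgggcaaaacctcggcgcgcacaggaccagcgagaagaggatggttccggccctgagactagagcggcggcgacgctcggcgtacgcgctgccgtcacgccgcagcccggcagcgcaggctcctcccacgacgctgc
Counted from the transcription start, the match began at -8 in DTL, -35 in CDT1 and -39 in TYMS. MCM6 carried 2 overlapping pairs, which began at -152 and -148 and at -90 and -86.

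Of the 58 member promoters, 23 held at least 1 E2F octamer (39.7%), against 1164 of 35116 promoters of all genes (3.31%). The 23 promoters belonged to 22 genes, and 19 of the 30 matches in them lay within 100 bases before the start. CCAAT, the letters read by the factor NF-Y, was present in 58.6% of member promoters and 34.6% of all promoters. Member promoters were also richer in G and C, with a median of 65.8% against 58.7%. The 22 members with a match fell in spheres in every case, with a median log2 change of -1.70. Of the 23 without one 20 did so, with a median of -1.01. Over all genes 19.0% were called lower. The difference between the sets, and any part of E2F in these falls, was not tested. CDC45 (-2.64), PRIM1 (-2.47), RRM1 (-1.73), RRM2 (-1.41) and TK1 (-2.08) were among those with no match to the octamers searched in this window. Other forms of the E2F site were not searched, so a member without a match may still hold one. These are counts of letters, not of bound sites.

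In HT29 spheres transcripts of nearly the whole replication machinery were lower than in parental cells. Of the 52 members, 49 fell, 1 rose (ORC4) and 2 did not pass the test (ORC5 and RFC5), at a limma adjusted p under 0.05. Over all 19775 genes, 19.0% were called lower and 12.4% higher. The median member change was -1.42 (log2), a level 2.68-fold lower, while the median of all genes was 0.04. At least 2-fold falls were called for 40 members, against 7.08% of all genes, and 12 of those were 4-fold or more. The 12 were MCM2, MCM5, MCM6, CDC45, MCM10, POLA1, PRIM1, POLE2, TYMS, TK1, DTL and UHRF1. The 1 that rose did so by less than 2-fold, while 3.16% of all genes were called at least 2-fold higher. In 49 members both sphere arrays read below both parental arrays without overlap, as in 30.5% of all genes, and in 1 both read above, as in 32.4%.

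**Figure D1:**
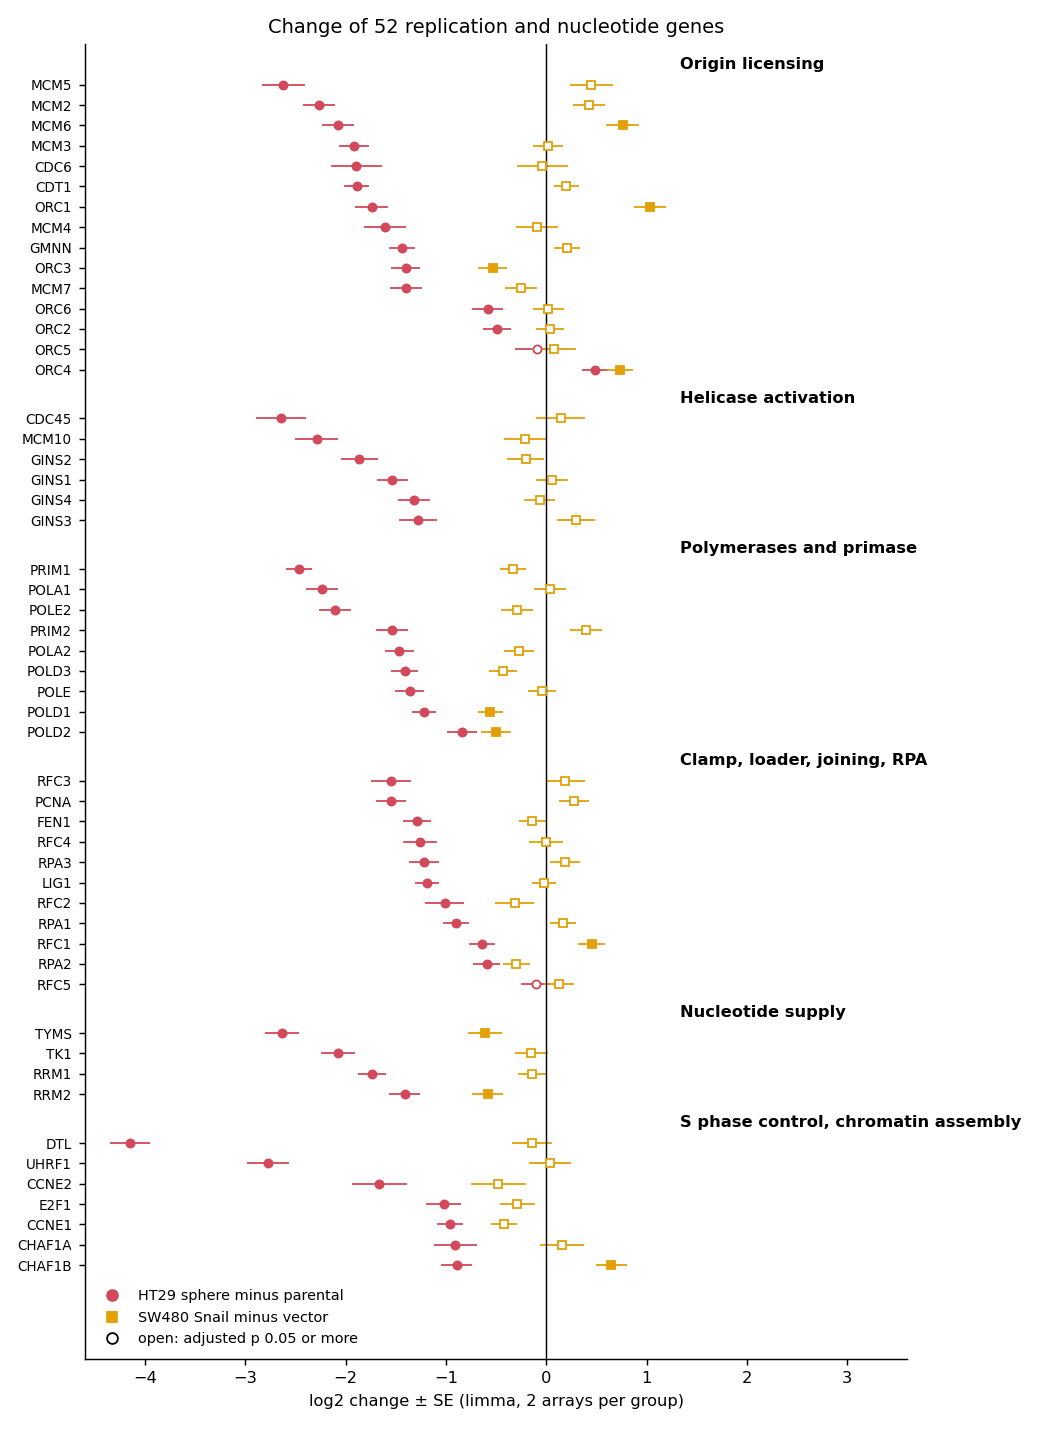
Log2 change of each of the 52 members in HT29 spheres (sphere minus parental, circles) and in the SW480 arrays labelled Snail (Snail minus vector, squares), with the standard error from limma as bars and open symbols where adjusted p is 0.05 or more. Genes are ordered by sphere change within role groups; 51 circles lie left of zero, while the squares lie on both sides of it, between -0.61 and 1.04.

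By role, the median log2 sphere change was -1.60 over origin licensing, -1.70 over helicase activation and -1.46 over polymerases and primase. It was -1.19 over the clamp, loader, joining and single-strand binding group, -1.91 over nucleotide supply and -1.02 over S phase control and chromatin assembly. Every group thus had a median fall of at least 2-fold. The calls were 13 lower of 15, 6 of 6, 9 of 9, 10 of 11, 4 of 4 and 7 of 7 in the same order. Differences between role groups were not tested.

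**Figure D2:**
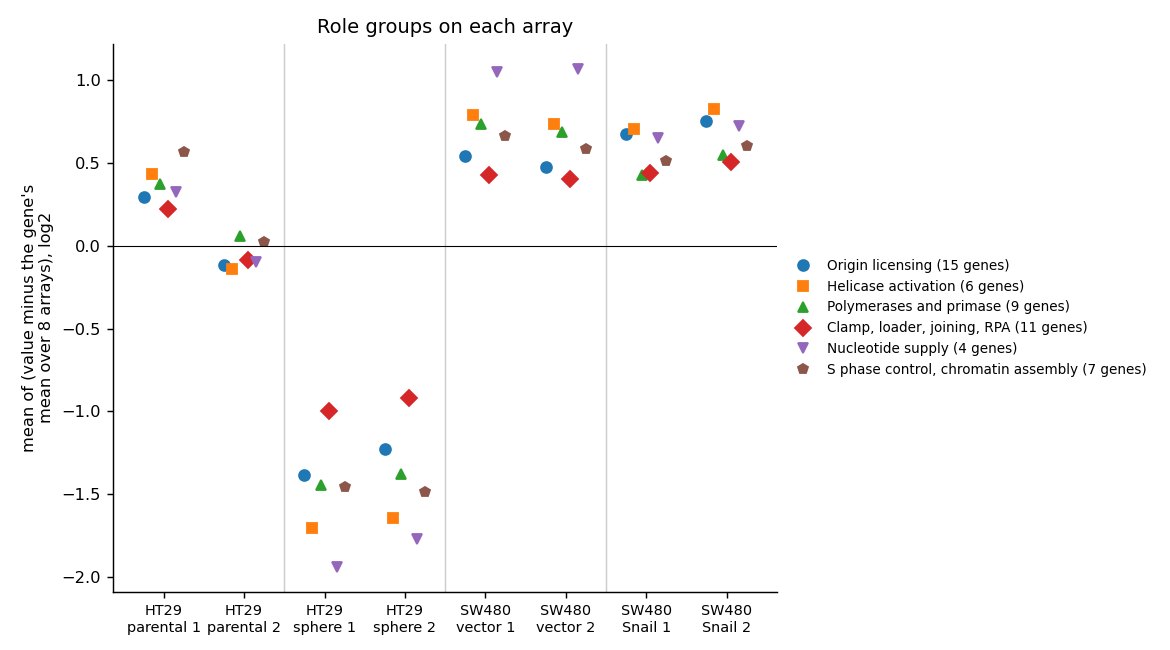
Mean over the genes of each role group of the log2 value minus that gene's own mean over the 8 arrays, on each array, with 1 marker per role group and no error bars. All 6 groups lie well below zero on both sphere arrays, and all lie lower on the second HT29 parental array than on the first.

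Among the licensing genes every subunit of the helicase ring fell, while the origin recognition complex was uneven. All 6 MCM2 to MCM7 genes fell by 1.40 to 2.62 (log2), with a median of -1.99. MCM2, a subunit of the ring, read 11.05 and 10.56 on the parental arrays and 8.55 and 8.52 on the sphere arrays. The groups lay far apart, and the change was -2.26 ± 0.16 (SE, n = 2 arrays per group; limma adjusted p = 5.1e-06), 4.80-fold lower. MCM6 read 10.95 and 10.51 in parental cells and 8.56 and 8.76 in spheres, a change of -2.07 ± 0.16. MCM5 had the largest fall of the ring at 6.14-fold, and MCM7 the smallest at 2.64-fold.

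The loaders of the ring fell as well. CDT1 read 9.19 and 9.06 in parental cells and 7.17 and 7.30 in spheres, a change of -1.89 ± 0.12 (limma adjusted p = 3.3e-06). CDC6, the ATPase that recruits CDT1 to origins, read 9.17 and 8.15 in parental cells and 6.70 and 6.83 in spheres. The parental arrays were over 2-fold apart, yet both stood above both sphere arrays, and the change was -1.89 ± 0.26 (limma adjusted p = 0.0003). GMNN, the geminin that binds CDT1 and blocks relicensing, read 9.97 and 10.02 in parental cells and 8.50 and 8.61 in spheres. It fell by 1.44 ± 0.13, so transcripts of the licensing factor and of its inhibitor were both lower. Their proteins were not measured.

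Within the origin recognition complex the 6 subunits ranged from -1.74 to 0.48 (log2), with a median of -0.54. ORC1, the subunit whose level varies over the cell cycle, read 7.20 and 6.77 in parental cells and 5.18 and 5.31 in spheres, a change of -1.74 ± 0.16 (limma adjusted p = 2.6e-05). ORC3, a core subunit, read 8.79 and 8.49 in parental cells and 7.14 and 7.34 in spheres, a change of -1.40 ± 0.14 (limma adjusted p = 5.1e-05). ORC2 and ORC6 fell by less, 0.49 ± 0.14 and 0.58 ± 0.16. ORC5 read 9.33 and 8.58 in parental cells and 8.83 and 8.90 in spheres. Both sphere values lay between the parental ones, and the interval of the change ran from -0.58 to 0.39 (95%), so a fall as large as that of ORC2 lies inside it.

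ORC4, the 1 member that rose, read 9.86 and 9.63 in parental cells and 10.23 and 10.23 in spheres, a change of 0.48 ± 0.13 (limma adjusted p = 0.016). That call rested on few arrays: the adjusted p was 0.067 without the second parental array, 0.073 without the first sphere array and 0.063 without the second. A second, dimmer ORC4 probe set changed by -0.04 ± 0.18, and with the mean of both the adjusted p was 0.27. ORC2 lost its call without parental array 1, parental array 2 or sphere array 1 (adjusted p = 0.052, 0.068 and 0.18), and with each line fitted alone (0.063). ORC6 lost its call without parental array 1 or sphere array 1 (0.094 and 0.15). After median centring neither ORC2 (0.07) nor ORC6 (0.052) passed, and after quantile normalisation ORC2 did not (0.12).

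All 6 genes of helicase activation fell, by 1.28 to 2.64 (log2). CDC45, which joins the loaded ring as origins fire, read 9.19 and 8.32 in parental cells and 6.32 and 5.91 in spheres, a change of -2.64 ± 0.25 (limma adjusted p = 2.7e-05) or 6.24-fold. MCM10, which promotes activation of the assembled helicase, read 8.69 and 7.94 in parental cells and 6.15 and 5.91 in spheres, a change of -2.29 ± 0.21. Parental array 1 was clearly the higher of its pair for both genes, and the sphere arrays still read lower than either.

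The 4 GINS subunits fell by 1.28 to 1.86, in a narrower range than the ORC subunits. GINS2 read 9.12 and 8.49 in parental cells and 6.90 and 6.98 in spheres, a change of -1.86 ± 0.19 (limma adjusted p = 4.2e-05). GINS3 read 7.81 and 7.17 in parental cells and 6.13 and 6.30 in spheres, the smallest change of the 4 at -1.28 ± 0.19. The other 2 GINS2 probe sets, both dimmer, differed in direction: 1 changed by -0.94 ± 0.22 and the other by 0.31 ± 0.17, which did not pass (adjusted p = 0.22). The GINS2 change averaged over probe sets was -0.83 and still passed.

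Polymerase and primase subunits fell in all 9 cases, and the primer-making enzymes were among those that fell most. PRIM1, the catalytic primase subunit, read 9.29 and 9.07 in parental cells and 6.65 and 6.77 in spheres. The groups lay far apart relative to the gap within either pair, with a change of -2.47 ± 0.13 (limma adjusted p = 1.1e-06), 5.52-fold. POLA1, the catalytic subunit of polymerase alpha, read 8.25 and 7.76 in parental cells and 5.73 and 5.80 in spheres, a change of -2.24 ± 0.16. POLE2, the second subunit of polymerase epsilon, read 8.36 and 7.94 in parental cells and 6.09 and 6.01 in spheres, a change of -2.10 ± 0.16.

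On the probe sets used, POLD1 and POLD2 moved less than the other polymerase and primase genes. POLD1, the catalytic subunit of polymerase delta, read 9.20 and 9.12 in parental cells and 7.90 and 7.98 in spheres. Its change was -1.22 ± 0.12 (limma adjusted p = 3.9e-05). POLD2 read 9.88 and 9.47 in parental cells and 8.86 and 8.82 in spheres, a change of -0.84 ± 0.15 that was the smallest among the polymerase genes. POLD3 fell by 1.41 ± 0.14, POLE by 1.36 ± 0.14, POLA2 by 1.46 ± 0.15 and PRIM2 by 1.54 ± 0.16.

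Behind the fork, PCNA, the clamp that tethers polymerases, read 11.64 and 11.26 in parental cells and 9.84 and 9.99 in spheres. All 4 values were far above every array's median over probe sets, and the change was -1.54 ± 0.15 (limma adjusted p = 3.6e-05) or 2.91-fold. FEN1, the nuclease that trims Okazaki fragments, read 10.66 and 10.33 in parental cells and 9.26 and 9.16 in spheres. LIG1, the ligase that seals them, read 8.78 and 8.85 in parental cells and 7.56 and 7.69 in spheres. FEN1 fell by 1.29 ± 0.14 and LIG1 by 1.19 ± 0.12.

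The clamp loader RFC was uneven on the probe sets used. RFC3, RFC4 and RFC2 fell by 1.54, 1.26 and 1.01. RFC1, the large subunit, read 9.26 and 9.21 in parental cells and 8.73 and 8.47 in spheres, a smaller change of -0.64 ± 0.13 (limma adjusted p = 0.0044). RFC5 read 9.49 and 9.13 in parental cells and 9.11 and 9.31 in spheres, with overlapping groups, a change of -0.10 ± 0.15 and a 95% interval from -0.43 to 0.24. Its other 2 probe sets, slightly dimmer, changed by -1.90 ± 0.17 and -1.76 ± 0.15 (limma adjusted p = 1.5e-05 and 9.6e-06). The RFC5 result therefore depended on the probe set, and with the mean of the 3 probe sets it was -1.25 (limma adjusted p = 0.00011). The trimer that coats single-stranded DNA fell by 0.90 (RPA1), 0.59 (RPA2) and 1.22 (RPA3). RPA2, for example, read 9.73 and 9.52 in parental cells and 9.05 and 9.01 in spheres.

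Transcripts of both subunits of ribonucleotide reductase and of both enzymes of thymidylate supply fell. RRM1, the large subunit, read 11.18 and 10.89 in parental cells and 9.29 and 9.31 in spheres, a change of -1.73 ± 0.14 (limma adjusted p = 9.9e-06). RRM2, the small subunit made in S phase, read 11.27 and 10.86 in parental cells and 9.56 and 9.75 in spheres, a change of -1.41 ± 0.15. A second RRM2 probe set fell by 2.24 ± 0.26, so the order of the 2 subunits depended on the probe set.

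TYMS, which makes thymidylate from deoxyuridylate, read 10.98 and 10.45 in parental cells and 7.98 and 8.17 in spheres, and was 6.20-fold lower (limma adjusted p = 3e-06). TK1, the cytosolic thymidine kinase of the salvage route, read 10.63 and 10.16 in parental cells and 8.18 and 8.46 in spheres, a change of -2.08 ± 0.17 (limma adjusted p = 1.1e-05) or 4.22-fold. Transcripts of the new-synthesis and the salvage enzyme for thymidylate were thus both lower.

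DTL, a substrate receptor of the ubiquitin ligase that destroys CDT1 in S phase, had the largest change of all 52 members. It read 9.88 and 9.27 in parental cells and 5.27 and 5.59 in spheres, a change of -4.15 ± 0.20 (limma adjusted p = 5.8e-07), 17.7-fold, and only 3 of the 19775 genes had a lower one. A second DTL probe set fell by 3.28 ± 0.13. UHRF1, which directs maintenance methylation to newly copied DNA, read 10.27 and 9.49 in parental cells and 7.13 and 7.10 in spheres, 6.82-fold lower.

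The regulators of S phase entry fell by less. E2F1 read 8.53 and 8.04 in parental cells and 7.33 and 7.19 in spheres, a change of -1.02 ± 0.17 (limma adjusted p = 0.0013). CCNE1, a cyclin that partners CDK2, read 8.87 and 8.87 in parental cells and 8.01 and 7.81 in spheres, a change of -0.96 ± 0.13. CCNE2, its paralogue, read 8.42 and 7.38 in parental cells and 6.08 and 6.39 in spheres, a change of -1.66 ± 0.27 with the widest parental pair of any member. The chromatin assembly subunits CHAF1A and CHAF1B fell by 0.91 ± 0.22 and 0.89 ± 0.15. The CHAF1A call was lost without parental array 1 (adjusted p = 0.073) or sphere array 2 (0.084), and after quantile normalisation (0.06).

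**Figure D3:**
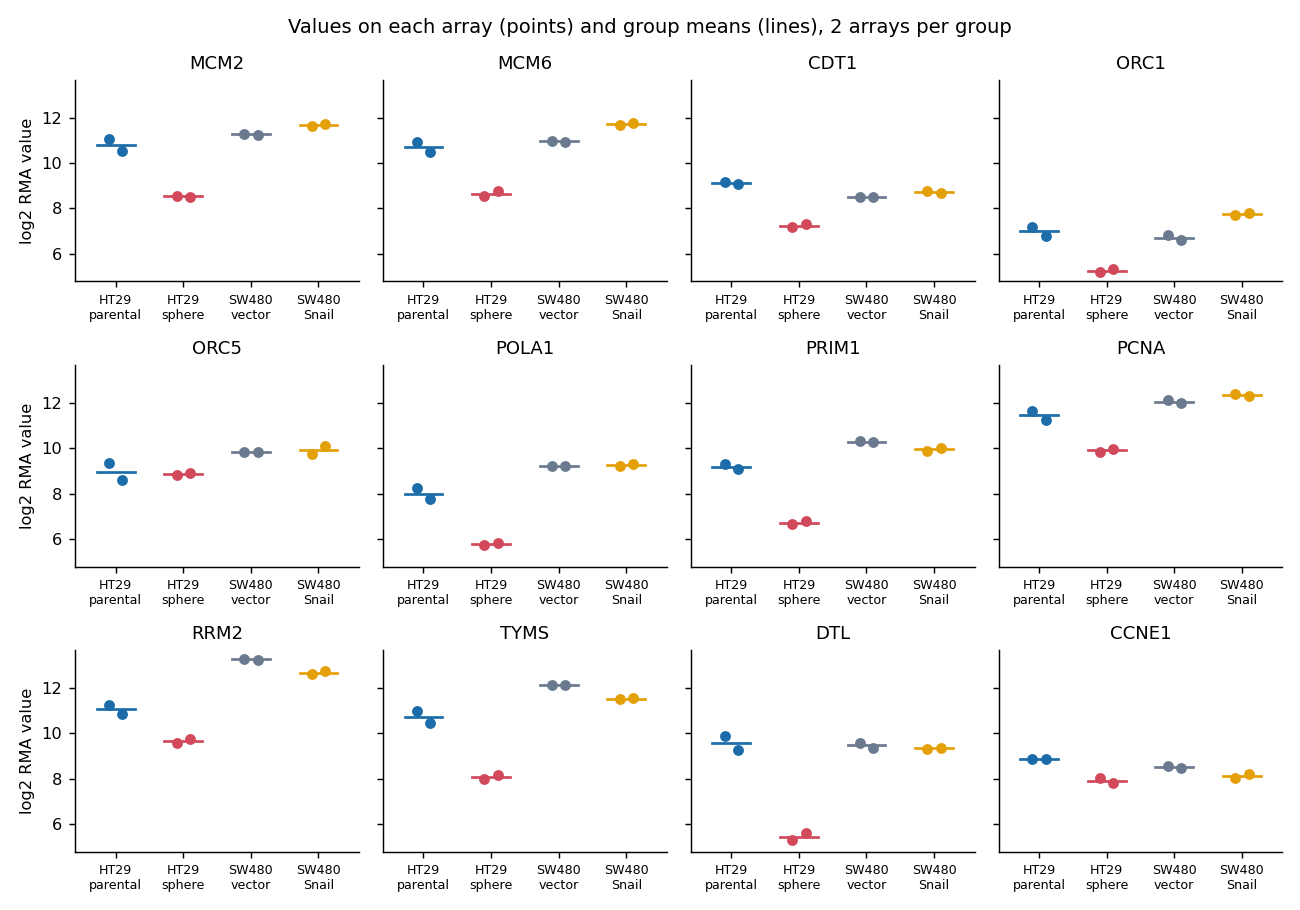
Deposited log2 RMA value on each of the 8 arrays for 12 members, as points, with group means as lines (n = 2 arrays per group). The members come from every role group but helicase activation. The vertical axis is shared and starts above zero. In the panels other than ORC5 both sphere points lie below both parental points, and in the CCNE1 panel they sit just below the Snail points.

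Probe set choice changed the size of several of these falls. The 52 members had 98 probe sets, and 30 members had more than 1. Of the 46 that were not used, 39 had a negative sphere change, 31 of them past the threshold, and 7 had a positive one, none past it. The other 22 members had a single probe set. With the mean of a gene's probe sets the sphere change was -0.42 for GINS4 in place of -1.31, -0.30 for CCNE1 in place of -0.96, and -0.74 for POLA2 in place of -1.46. It was -0.81 for POLD3 in place of -1.41, -0.96 for RFC3 in place of -1.54, and -0.87 for ORC2 in place of -0.49. All 6 still passed, CCNE1 narrowly (limma adjusted p = 0.048). Both sphere arrays of ORC1, and the first sphere array of GINS4, PRIM2 and DTL, read below that array's median over all probe sets. No detection call was used here, so whether these values lie above background was not measured.

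**Figure D4:**
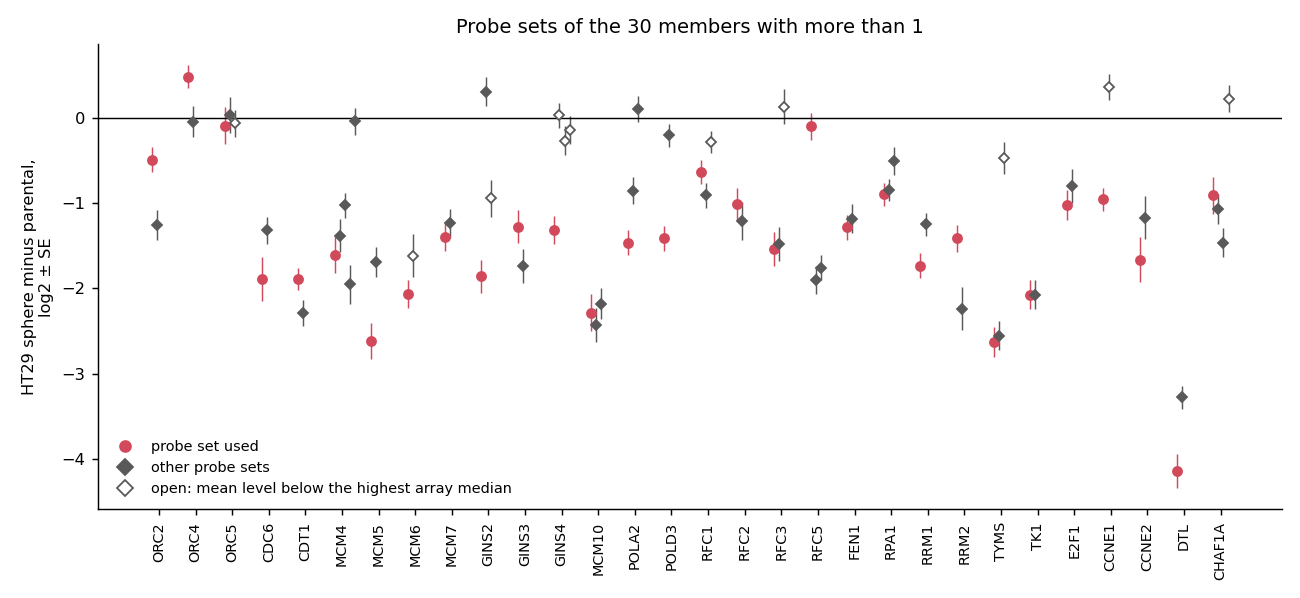
Log2 sphere change (sphere minus parental, bars are standard errors) for every probe set of the 30 members with more than 1, with the set used as circles and the others as diamonds. Open diamonds have a mean level below the highest array median; RFC5 is the member whose unused probe sets lie far below the used one.

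Several measurements moved together with the sphere falls. The 5 markers of dividing cells all fell: TOP2A by 2.24, CCNA2 by 1.47, CDK1 by 1.35, CCNB1 by 1.08 and MKI67 by 1.06 (log2). Their summed linear level was 7298 to 9443 on the parental arrays and 2580 to 3100 on the sphere arrays. In bulk RNA, fewer cells in S phase and less of these transcripts per cell cannot be told apart. Parental array 1 read above parental array 2 for 49 of 52 members, against 52.3% of all genes, with a median gap of 0.40 against 0.18. Without parental array 1 the median member change was -1.24 and without parental array 2 it was -1.62.

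Of 10 colon epithelial markers, 9 on each parental array and 10 on each sphere array read above the array median, and 7 did so on every SW480 array. KRT20 and LGALS4 read between 4.11 and 5.05 on the SW480 arrays. Of 6 fibroblast markers 1 rose in spheres: LUM, from 4.65 and 4.65 to 8.45 and 8.41. The summed linear level of the 6 was 341 to 349 in parental cells and 684 to 751 in spheres, and its part in the member changes was not tested. Of the 10 epithelial markers 3 rose in spheres, 1 fell and 6 did not pass, with a median of 0.04. CDH17, an epithelial cadherin, rose from 5.08 and 5.09 to 9.92 and 9.73, KRT20 by 1.59 and CDX1 by 0.59, and VIL1 fell by 0.77. Of 4 leukocyte markers CD3E rose by 0.39 ± 0.13 (limma adjusted p = 0.038) and 3 did not pass, among them LYZ, which read 12.8 to 13.0 on all HT29 arrays. Of 3 endothelial markers PECAM1 rose by 0.57 ± 0.16 (limma adjusted p = 0.018) and 2 did not pass. The summed linear level was 7626 to 7950 in parental cells and 7945 to 8385 in spheres for the leukocyte markers, and 109 to 114 and 130 to 160 for the endothelial ones; their part in the member changes was not tested. A bacterial spike-in control, BioC, read 1.72 (log2) higher on the sphere arrays than on the parental ones at its 3′ probe set. The parental arrays were the unlike ones, at 8.35 and 8.43, against 9.59 to 10.13 on the sphere and SW480 arrays. The spike-ins BioB, BioDn and CreX read higher on the sphere arrays by 0.32, 0.19 and 0.08. The GAPDH 3′ minus 5′ value differed by -0.02. The ACTB 3′ minus 5′ value was 0.66 and 0.59 on the parental arrays and 0.72 and 0.95 on the sphere arrays, higher by 0.21 with pairs that did not overlap. The part of these measures in the member changes was not tested.

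In SW480 the arrays labelled Snail did not read higher at SNAI1. The single SNAI1 probe set read 6.36 and 6.34 with vector and 6.32 and 6.38 in the arrays labelled Snail. Where its probes lie on the transcript was not examined here, and transcript from a construct that lacks that part would be missed. Directions below rest on the labels. In HT29 the same probe set was higher in spheres by 1.07 ± 0.15 (limma adjusted p = 0.00032).

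The replication genes had no common direction in the arrays labelled Snail. Of the 52 members, 5 rose (ORC1, ORC4, MCM6, RFC1 and CHAF1B) and 5 fell (ORC3, POLD1, POLD2, RRM2 and TYMS). Over all genes 8.91% were called higher and 7.34% lower, so both counts were near the background. The median member change was -0.01 (log2), against 0.01 over all genes, and only ORC1 changed by 2-fold or more. By role the median was 0.08 over licensing, -0.01 over helicase activation, -0.29 over polymerases, 0.13 over the clamp and loader group, -0.36 over nucleotide supply and -0.14 over S phase control.

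The 5 rises, a count near the background, were ORC1, ORC4 and MCM6 of licensing, RFC1 of the clamp loader and CHAF1B of chromatin assembly. ORC1 read 6.81 and 6.62 with vector and 7.71 and 7.79 with Snail, a change of 1.04 ± 0.16 (limma adjusted p = 0.0021). ORC4 read 9.56 and 9.44 with vector and 10.24 and 10.24 with Snail, a change of 0.74 ± 0.13, and its dimmer probe set changed by 0.27 ± 0.18. MCM6 read 10.99 and 10.95 with vector and 11.69 and 11.77 with Snail, a change of 0.76 ± 0.16 (limma adjusted p = 0.01). In none of these 3 genes did the pairs overlap, and in 31.2% of all genes both Snail arrays lay above both vector arrays. RFC1 read 8.66 and 8.51 against 9.01 and 9.06, a change of 0.45 ± 0.13 (limma adjusted p = 0.044). CHAF1B read 7.93 and 7.70 against 8.38 and 8.55, a change of 0.65 ± 0.15 (limma adjusted p = 0.017). Among the other ring subunits MCM2 read 11.29 and 11.25 with vector and 11.66 and 11.74 with Snail, a difference of 0.43 ± 0.16 that did not pass (adjusted p = 0.1).

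The 5 falls, also a count near the background, were 2 of the 9 polymerase and primase genes, 2 of the 4 nucleotide supply genes, and ORC3. RRM2 read 13.28 and 13.26 with vector and 12.64 and 12.73 with Snail, a change of -0.58 ± 0.15 (limma adjusted p = 0.029). Its second probe set changed by -0.05 ± 0.26. TYMS read 12.13 and 12.15 with vector and 11.50 and 11.56 with Snail, a change of -0.61 ± 0.17 (limma adjusted p = 0.036). POLD1 read 9.44 and 9.34 against 8.82 and 8.85 (-0.56 ± 0.12, limma adjusted p = 0.012), and POLD2 read 10.84 and 10.81 against 10.25 and 10.40 (-0.50 ± 0.15, 0.049). ORC3 read 9.36 and 9.38 with vector and 8.77 and 8.91 with Snail (-0.53 ± 0.14, 0.031). For each of these 5 genes both Snail arrays lay below both vector arrays, as in 29.2% of all genes.

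Many members differed in SW480 by amounts that the test did not call. CDT1 read 8.52 and 8.53 with vector and 8.78 and 8.67 with Snail (0.20 ± 0.12), while its second probe set fell by 0.65 ± 0.15 (limma adjusted p = 0.016). PCNA read 12.12 and 12.00 against 12.38 and 12.31, and GMNN read 10.12 and 10.16 against 10.24 and 10.45. CDC6 (9.98 and 9.92 against 9.89 and 9.94), POLA1 (9.23 and 9.22 against 9.22 and 9.30) and DTL (9.59 and 9.36 against 9.32 and 9.35) had pairs that overlapped or nearly met. CCNE1 read 8.58 and 8.49 against 8.04 and 8.19 and missed the threshold (adjusted p = 0.054). Without regard to the test, the pairs did not overlap in 21 members with Snail lower and 17 with Snail higher, against 29.2% and 31.2% of all genes.

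Of the 52 members, 42 did not pass in this comparison, some with differences as large as the smallest called ones. CCNE2 read 8.59 and 8.57 with vector and 8.03 and 8.18 with Snail, a difference of -0.48 (adjusted p = 0.28). MCM5 read 9.35 and 9.37 against 9.83 and 9.79 (0.45, 0.19), POLD3 8.64 and 8.64 against 8.15 and 8.26 (-0.43, 0.06), and PRIM2 6.60 and 6.60 against 6.94 and 7.06 (0.39, 0.12). In these 4 genes the pairs did not overlap, as in 29.2% of all genes with Snail lower and 31.2% with Snail higher. RRM1 read 11.03 and 11.12 with vector and 10.86 and 11.01 with Snail on the probe set used. Its second, dimmer probe set changed by -0.53 ± 0.13 and passed (limma adjusted p over probe sets = 0.025). TK1 read 10.51 and 10.50 against 10.36 and 10.35. Among the helicase genes CDC45 read 8.32 and 8.22 against 8.34 and 8.48, MCM10 9.40 and 9.26 against 9.05 and 9.20, GINS2 9.99 and 9.94 against 9.67 and 9.84, and GINS3 7.81 and 7.82 against 8.05 and 8.18. None of these genes passed the test in this comparison on the probe set used. PRIM1 read 10.31 and 10.27 against 9.89 and 10.02, and POLE2 read 8.89 and 8.87 against 8.46 and 8.71. FEN1 read 11.12 and 11.16 against 10.99 and 11.02, LIG1 8.54 and 8.44 against 8.46 and 8.48, and RPA2 10.30 and 10.26 against 9.89 and 10.08. E2F1 read 8.61 and 8.89 against 8.43 and 8.49, and UHRF1 10.75 and 10.83 against 10.82 and 10.84. The members that fell most in spheres, DTL and UHRF1, thus differed by 0.14 or less between the SW480 groups.

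The SW480 calls were few and depended on single arrays. The count of lower members was 0 without vector array 1, Snail array 1 or Snail array 2, and 1 without vector array 2. It was 3 without sphere array 1 or without sphere array 2, and 8 without parental array 1 or without parental array 2, through the shared estimate of spread. The count of higher members was 3 without vector array 1 and 2 without any other SW480 array. ORC1 and ORC4 kept their calls in each case. With the mean of a gene's probe sets, MCM6 (adjusted p = 0.15), RFC1 (0.28), RRM2 (0.34) and TYMS (0.071) were no longer called. After median centring POLD2 (0.05) and RFC1 (0.055) were not, nor was RFC1 after quantile normalisation (0.074). On the arrays labelled Snail the 4 bacterial spike-in controls read 0.24 to 0.53 (log2) lower than with vector, and a probe set for 28S ribosomal RNA read 1.92 higher. Their part in these small differences was not tested. None of the 5 dividing-cell markers passed in this comparison.

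The change in spheres and the change in the arrays labelled Snail were compared directly, as the sphere change minus the Snail change. It was lower for 42 of 52 members and higher for 0, against 16.9% and 10.6% of all genes, with a median of -1.46 (log2). It was 2-fold or more lower for 38 (9.70% of all genes) and 2-fold or more higher for 0 (4.62%). The 10 that did not pass were ORC2, ORC4, ORC5, ORC6, POLD2, RFC2, RFC5, RPA2, E2F1 and CCNE1. At an unadjusted level no member stood higher either, since all 52 differences were negative. The change differed most for DTL, at -4.01 ± 0.28 (limma adjusted p = 9.7e-06), then MCM5 at -3.07 and MCM6 at -2.83.

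Among members called in both comparisons, 4 fell in spheres and rose in the arrays labelled Snail, as did 2.71% of all genes. In both comparisons 5 fell, as did 2.00% of all genes. With 49 of 52 members lower in spheres, the nearer shares are those of all genes called with Snail. These were 8.91% higher and 7.34% lower, and the counts of 4 and 5 lay near them. The 4 were ORC1 (difference -2.78 ± 0.23, limma adjusted p = 2.5e-05), MCM6 (-2.83 ± 0.23, 2.2e-05), CHAF1B (-1.54 ± 0.22, 0.00053) and RFC1 (-1.09 ± 0.19, 0.0018). The 5 were ORC3, POLD1, POLD2, RRM2 and TYMS. TYMS fell by 2.63 in spheres and 0.61 with Snail, and that difference of -2.02 ± 0.24 passed (limma adjusted p = 0.00021). POLD2 fell by 0.84 and 0.50, a difference of -0.34 ± 0.21 that did not pass (adjusted p = 0.28). Leaving out single arrays ended 4 of the 42 calls. CCNE2 lost its call without any 1 of the sphere, vector or Snail arrays (adjusted p up to 0.15). CHAF1A lost it without parental array 1, sphere array 2, vector array 2 or either Snail array (up to 0.098). POLD1 (up to 0.064) and RRM2 (up to 0.071) lost it without sphere array 1, vector array 2 or Snail array 2. With the mean of probe sets GINS2 (adjusted p = 0.051), GINS4 (0.37), POLA2 (0.06) and CCNE2 (0.12) were not called either. After median centring CCNE2 was not (0.068), and after quantile normalisation POLD1 (0.061), CCNE2 (0.11) and CHAF1A (0.12) were not.

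Across the 4 groups the spheres were lowest. The sphere mean was the lowest of the 4 for 49 of 52 members, against 26.0% of all genes, and in 48 both sphere arrays lay below all 6 others, against 15.3%. The highest mean was in SW480 vector cells for 22 members, in the arrays labelled Snail for 21 and in HT29 parental cells for 9. Between the last 3 groups the order varied from gene to gene. For CDC45 the second parental value, 8.32, lay among the SW480 values, so those 3 groups did not separate. For PRIM1 the 3 pairs did not overlap, with vector highest, Snail next and HT29 parental below, but the difference between vector and Snail did not pass (adjusted p = 0.12).

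The control lines also differed. In SW480 vector cells 27 members were higher than in HT29 parental cells and 3 were lower (CDT1, POLE and RFC1), against 22.6% and 23.5% of all genes, and the median was 0.44 (log2; 0.07 over all genes). Of the 27, 13 were higher by 2-fold or more (7.32% of all genes), and the pairs did not overlap in 34 members that were higher in SW480 (39.6%) and 10 that were lower (32.6%). This comparison uses the same parental arrays as the sphere comparison. The ACTB 3′ minus 5′ value was 0.66 and 0.59 on the parental arrays and 0.12 and 0.18 on the vector arrays. The GAPDH value averaged 0.19 and 0.14. Spike-in means were 8.39 and 9.99 for BioC, 8.10 and 8.31 for BioB, 11.87 and 11.93 for BioDn, and 13.41 and 13.28 for CreX. The part of these measures in the differences was not tested. On the probe sets used RRM2 was 4.61-fold higher in SW480 vector cells (limma adjusted p = 1.2e-06), GINS4 2.74-fold and TYMS 2.69-fold. These sizes and their order depended on the probe set. The second RRM2 set was 2.26-fold higher, reading 11.43 and 10.44 in parental cells and 12.06 and 12.17 with vector. The other TYMS sets were 3.39-fold and 1.07-fold higher. The other GINS4 sets, all dim, were higher by 0.59 to 0.91 (log2), against 1.45 for the set used. CDC6 was 2.45-fold, MCM7 2.40-fold and POLA1 2.33-fold higher, with second sets 2.98-fold higher for CDC6 and 1.73-fold for MCM7. TK1, RRM1, MCM5, DTL and GMNN differed by 0.15 or less on the sets used, but the second sets of RRM1 and DTL were higher by 0.79 and 0.42 (limma adjusted p over probe sets = 0.00062 and 0.024). CDT1 was lower by 0.60 ± 0.12 (limma adjusted p = 0.0025) while CDC6, which acts in the same loading step, was higher by 1.29 ± 0.26. The dimmer CDT1 set differed by 0.10 ± 0.15 and did not pass. The median was 0.68 without parental array 1 and 0.22 without parental array 2, and the count of lower members was 7 without parental array 2.

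**Figure D5:**
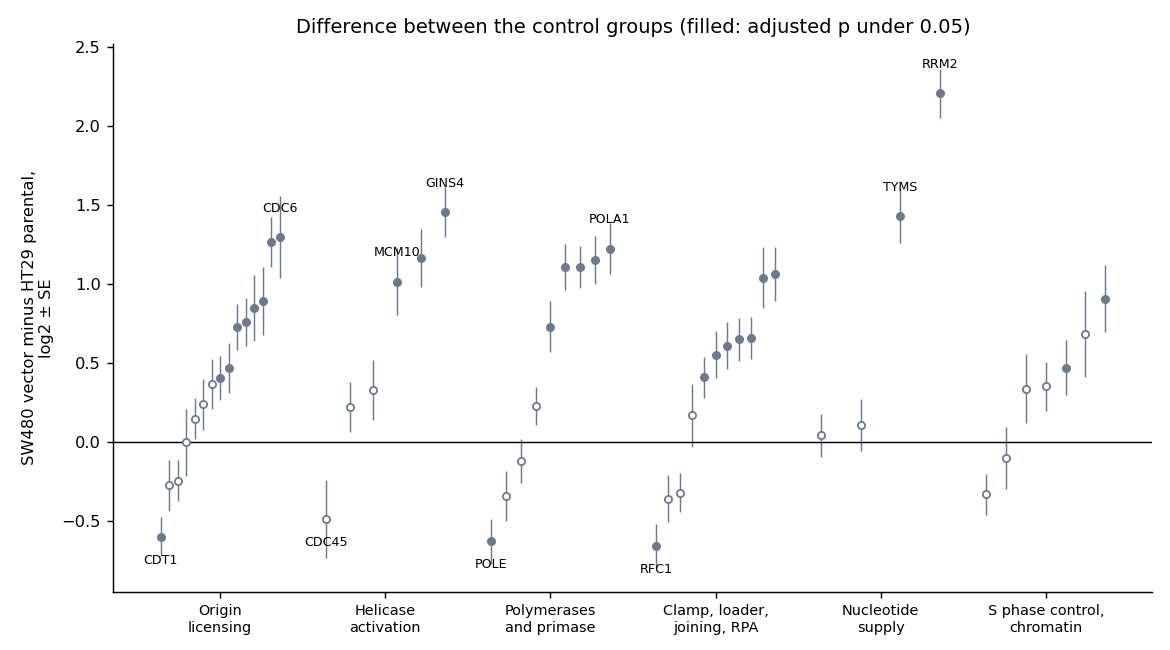
Log2 difference between the control groups (SW480 vector minus HT29 parental) for each member, ordered within role groups, with standard errors as bars and filled points where the limma adjusted p is under 0.05. RRM2 lies highest at over 2, and CDT1, POLE and RFC1 are the filled points below zero.

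Other genes of the same pathway were examined through lists of symbols outside the 52. Of 33 further genes of firing, fork and licensing control, 25 fell in spheres, 1 rose and 7 did not pass, with a median of -1.06 (log2), where 19.0% of all genes fell and 12.4% rose. CDC7, the kinase that triggers origin firing, fell by 3.19 ± 0.18 (limma adjusted p = 1.5e-06), 9.15-fold, whereas its activating partner DBF4 changed by -0.51 and did not pass (adjusted p = 0.094). The atypical repressors E2F7 and E2F8 fell by 3.48 ± 0.23 and 2.87 ± 0.18. POLD4, the small subunit of polymerase delta, rose by 0.77 ± 0.12 (limma adjusted p = 0.00064), unlike the 3 other delta subunits.

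Of 25 measured enzymes of nucleotide synthesis and salvage, 16 fell in spheres, 1 rose and 8 did not pass, with a median of -0.64, against the same 19.0% and 12.4% of all genes. DUT, which removes dUTP and yields the substrate of TYMS, fell by 2.00 ± 0.13 (limma adjusted p = 3.4e-06). UMPS, which completes uridylate synthesis, rose by 0.49 ± 0.17 (limma adjusted p = 0.045).

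With Snail the firing and fork list had 6 lower, 3 higher and 24 not past, and the nucleotide list 4 lower, 2 higher and 19 not past, where 7.34% of all genes were called lower and 8.91% higher. RRM2B, the p53-inducible small subunit of ribonucleotide reductase, rose by 1.09 ± 0.15 (limma adjusted p = 0.0013), while RRM2 fell. E2F3 rose by 0.63, MCM9 by 0.69 and DNA2 by 0.57. The nucleoside transporter SLC29A1 fell by 0.99 ± 0.15 (limma adjusted p = 0.0016), CHTF18 by 0.78, the histone chaperone ASF1B by 0.80 and IMPDH1 by 0.65.

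In the direct comparison of the changes, CDC7 (-3.03), E2F8 (-2.67), DUT (-2.06) and NASP (-1.83) stood lower in spheres, and POLD4 (1.24) and IMPDH1 (0.67) higher. Between the control groups SW480 vector cells were higher for POLE4 (1.86), DONSON (1.53), RNASEH2A (1.44) and CAD (1.43), the enzyme that opens pyrimidine synthesis. They were lower for CMPK1 (-1.88), TK2 (-1.10), POLD4 (-1.05) and E2F3 (-1.02).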

How the data were processed

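Total RNA of 8 samples was hybridised to Affymetrix arrays, 1 array each. The authors deposited log2 expression values made by RMA, per the submitters' processing notes; the RMA version and probe definitions were not given in the sources used here. RMA brings arrays to a common distribution, so a change shared by most genes would not show. Of 54675 probe sets, 62 were controls, 41091 named 1 gene, 1801 several and 11721 none; 41037 of those naming 1 gene matched RefSeq (GRCh38.p14). The brightest probe set stood for each of 19775 genes. Group means over the 8 arrays were fitted with limma 3.58.1 in R 4.3.3 (4 residual and 6.10 prior degrees of freedom), with Benjamini-Hochberg adjustment of p over the 19775 genes and a threshold of 0.05. The number of arrays limits the precision: an exact test of 2 against 2 cannot go below p = 0.333. Scripts were tested on simulated data. Values per array are given for the 3 members of each role group with the lowest adjusted p in spheres, up to 2 in the Snail comparison, members called in opposite directions, and 16 members in every case; of the other pathway genes, the 4 lowest per direction are named. Members and lists were chosen with earlier results of these data known. Alternatives covered probe sets, scaling, dim genes, the fit, thresholds, a replicate block and each array left out.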

Additional observations from a re-analysis of the deposited data

Results flagged for a closer look

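The change differed between the 2 comparisons, by a direct test, for 42 of the 52 members, and in each of them the sphere change lay below the Snail change. Among these, 4 were called in opposite directions. The sphere change minus the Snail change was -2.78 (log2) for ORC1, -2.83 for MCM6, -1.09 for RFC1 and -1.54 for CHAF1B. With 49 of 52 members lower in spheres, a count of 4 lies near the 8.91% of all genes called higher with Snail. The Snail calls of MCM6, RFC1 and CHAF1B also depended on single SW480 arrays. The MCM6 rise with Snail rested on its brighter probe set, and the dimmer one changed by 0.19 ± 0.25. The RFC1 rise had an adjusted p of 0.044 and was lost with the mean of its probe sets (0.28).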

How the results depend on the processing

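The member falls in spheres held under the alternatives, with 46 to 49 lower without single arrays and 48 with each line alone; 80 of 98 were lower by probe set. The median sphere change ranged from -1.62 to -1.24 without single arrays, and median centring moved the median of all genes from 0.04 to 0.16. ORC5 turned to 0.028 (median centring) and 0.050 (quantile normalisation) and ranged from -0.47 to 0.28 without single arrays. RFC5 turned to 0.022 and 0.029 and ranged from -0.28 to 0.083; neither was called. Members higher in spheres numbered 0 with the mean of probe sets, a 2-fold limit or an adjusted p under 0.01, and 0 to 1 without single arrays. Lower and higher members with Snail numbered 3 and 3 with the mean of probe sets, 8 and 8 with each line alone, 0 and 1 at 2-fold, 0 and 2 at an adjusted p under 0.01, and 9 lower by probe set; without single arrays they ranged from 0 to 8 and from 2 to 6. The median Snail change was -0.070 to 0.033. Sphere relative to Snail, 67 of 98 probe sets were lower, 38 to 46 members without single arrays, and the median was -1.25 with the mean of probe sets, -1.19 by probe set, -1.27 with quantile normalisation and -1.66 to -1.22 without single arrays. Between the control groups, 51 of 98 probe sets and 13 members at 2-fold were higher; 5 were lower without the dimmest 40% of genes, 6 with a trend and robust prior and 0 at 2-fold. Without single arrays 22 to 31 were higher and 3 to 7 lower, with medians of 0.22 to 0.68. A replicate block left 49 members lower in spheres and 4 lower with Snail, ending the POLD2 call (adjusted p = 0.058). Replicate differences of the groups correlated at 0.03 in HT29 and -0.03 in SW480, so no shared pattern was seen. Whether arrays of the same number share a culture or run is not stated, and these correlations cannot settle it. With 2 arrays per group and no detection calls, levels near background are the least certain.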
